A study of Sus scrofa with 19 samples.

Results

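The genes described here are 6 genes of T cells and cytotoxic lymphocytes, CD3D, CD8B, CD2, CD5, NKG7 and GZMA, measured in the whole adrenal glands of 19 male piglets, each from a different sow. They were chosen by name, with earlier results of these data known. A probe set was taken where 1 of these symbols was its only gene symbol in the array annotation. This gave 7 of the 27558 probe sets on the array, and 6 genes of the 12217 that the array measured by symbol. GZMA had 2 probe sets, which belong to 2 neighbouring pig genes of the same symbol.

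The piglets fall into 6 groups by the diet of the sow and the challenge she received in late gestation. Fish oil offspring comprised 4 piglets after maternal LPS (10, 19, 20 and 24 by their numbers in the labels) and 4 after maternal saline (9, 11, 13 and 18). Microalgae offspring comprised 2 after maternal LPS (7 and 23) and 3 after maternal saline (12, 15 and 22). Control diet offspring comprised 3 after maternal LPS (6, 16 and 17) and 3 after maternal saline (8, 14 and 21). Sows were kept on their diet starting at day 75 of gestation and were challenged at day 112. LPS, lipopolysaccharide, is a component of the bacterial cell wall that provokes inflammation. What all 6 groups share is a challenge of their own: after weaning at 21 days, every piglet was itself given LPS at 28 days and killed 2 hours later. There is therefore no gland of an unchallenged piglet, and the control group is one of challenged piglets from sows on an unsupplemented diet. Fish oil and microalgae both supply long-chain omega-3 fatty acids.

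T cells recognise antigen through a receptor that signals by way of the CD3 chains, and the coreceptors CD4 and CD8 bring the kinase LCK to it. Cytotoxic T cells and natural killer cells kill by releasing granules that hold perforin, which opens the target membrane, and granzymes, the proteases that enter through it. In the adrenal gland, lymphocytes are a small population beside resident macrophages. In an extract of the whole gland, fewer cells of a type and less RNA per cell cannot be told apart.

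All 6 genes had a higher mean signal in fish oil offspring than in control offspring, by 0.13 to 0.54 on the log2 scale. All 6 were also higher in microalgae offspring, by 0.18 to 0.35. Of all probe sets tested, 50.4% were higher for fish oil and 51% for microalgae, and both comparisons use the same 6 control offspring. The brighter GZMA probe set adds no weight to either count. It passed a limit on dim probe sets through the groups in which it was high. None of the differences of the 6 genes passed a threshold of 0.05 on the adjusted p. This is the p of limma, a linear model fitted to every probe set, after Benjamini-Hochberg adjustment over all of them. The clearest was NKG7, at 4.84 ± 0.104 log2 in 8 fish oil offspring and 4.47 ± 0.279 log2 in 6 control offspring (SD). By maternal challenge the 6 genes were divided, with 3 higher and 3 lower after maternal LPS.

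Values are deposited log2 signals, and they cannot be compared between probe sets, since each probe set binds with its own strength. Array medians lay between 4.38 and 4.52, and correlations between arrays, across probe sets, between 0.934 and 0.982. The number of arrays limits the precision. Genes of adrenal steroid synthesis were bright, with CYP17A1 at a mean of 12.36 and HSD3B1 at 11.13, and genes of the medulla were measured, with PNMT at 7.14. The mean signal of CD3D stood at percentile 39.6 of all probe sets, CD8B at 49.4, CD2 at 52.2, CD5 at 55.1, NKG7 at 55.4 and the brighter GZMA probe set at 27.4. Probe sets in the dimmest 25% by mean signal, at or under 3.225, were not tested. That removed the dimmer GZMA probe set (mean 2.60, Entrez gene 100233183) and kept the brighter one (mean 3.36, Entrez gene 100526762). The brighter one had group means under this limit in both control groups (3.07 after LPS and 3.17 after saline) and in microalgae offspring after LPS (3.11). It passed through the groups in which it was high, so its differences are uncertain.

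In the RefSeq pig annotation (Sscrofa11.1) several of these genes sit among relatives. CD3D lies between CD3E and CD3G, which encode other chains of the CD3 complex, CD8B beside CD8A, the other chain of the CD8 dimer, and CD5 beside CD6, a related receptor. The GZMA gene 100233183 lies between GZMK, a further granzyme, and the GZMA gene 100526762. How far the 2 GZMA probe sets bind transcripts of both genes was not tested. CD2 lies between PTGFRN and IGSF3, and NKG7 between LIM2 and CLDND2.

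**Figure D1:**
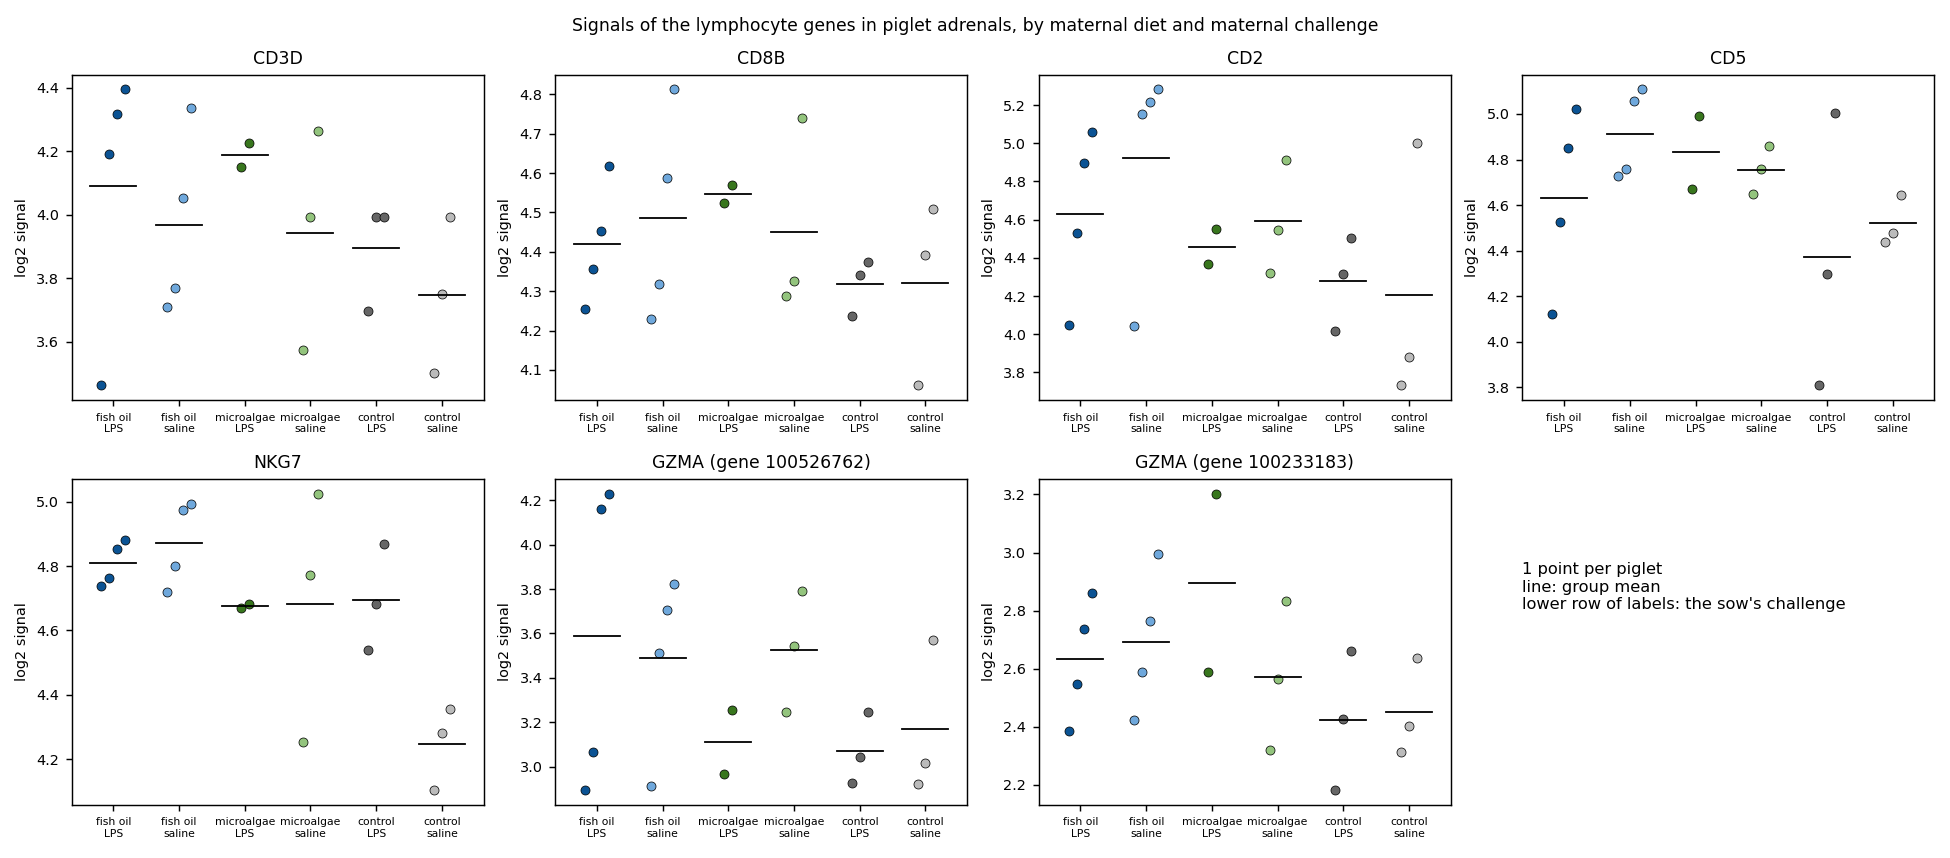
Log2 signal of each of the 7 probe sets (y axis, its own scale in each panel) in each of 19 piglets (points), by maternal diet and maternal challenge (x axis), with the group mean as a line. NKG7 lies between 4.72 and 4.99 in all 8 fish oil offspring, while CD2 and the brighter GZMA probe set spread over more than 1 log2 unit within the fish oil diet.

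CD3D encodes the delta chain of CD3, through which the T cell receptor signals. Its signal was 4.40, 3.46, 4.32 and 4.19 in fish oil offspring after maternal LPS (piglets 10, 19, 20 and 24), and 3.77, 4.05, 3.71 and 4.34 in fish oil offspring after saline (9, 11, 13 and 18). Microalgae offspring had 4.15 and 4.23 after LPS (7 and 23) and 3.58, 4.26 and 3.99 after saline (12, 15 and 22). Control offspring had 3.99, 3.99 and 3.70 after LPS (6, 16 and 17) and 3.75, 3.50 and 3.99 after saline (8, 14 and 21). Piglet 19, a fish oil offspring, had the lowest value of all 19, and no control piglet was above 3.99. The fish oil minus control difference was 0.21 ± 0.159 (SE; adjusted p = 1.0; exact permutation p = 0.22, two-sided, 8 against 6 piglets), and that of microalgae minus control was 0.25 ± 0.18 (adjusted p = 1.0; exact permutation p = 0.09). Both intervals included 0.

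CD8B encodes the beta chain of CD8, the coreceptor of cytotoxic T cells. Its signal was 4.45, 4.26, 4.62 and 4.36 in fish oil offspring after LPS (piglets 10, 19, 20 and 24), and 4.81, 4.23, 4.32 and 4.59 after saline (9, 11, 13 and 18). Microalgae offspring had 4.57 and 4.52 after LPS (7 and 23) and 4.29, 4.74 and 4.33 after saline (12, 15 and 22). Control offspring had 4.38, 4.34 and 4.24 after LPS (6, 16 and 17) and 4.06, 4.39 and 4.51 after saline (8, 14 and 21). The diets overlapped widely. The 4 highest values, 4.59 to 4.81, were all from fish oil or microalgae offspring, which make up most of the 19 piglets. At the low end, only control piglet 8 was below fish oil piglet 11 (4.23). CD8B was the least variable of the 6 genes, with an SD of 0.189 over 19 piglets, which stands at percentile 16.7 of the probe sets tested. The fish oil minus control difference was 0.13 ± 0.116 (adjusted p = 1.0; exact permutation p = 0.225) and the microalgae minus control difference 0.18 ± 0.131 (adjusted p = 1.0; exact permutation p = 0.115). The fish oil difference was 0.07 without control piglet 8 and 0.08 without fish oil piglet 9. The microalgae difference was 0.11 without microalgae piglet 15 and 0.12 without control piglet 8.

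CD2 is an adhesion receptor of T cells and natural killer cells that, in humans, binds CD58 on the partner cell. Fish oil offspring had 5.06, 4.05, 4.53 and 4.89 after LPS (piglets 10, 19, 20 and 24) and 5.22, 5.15, 4.04 and 5.28 after saline (9, 11, 13 and 18). Microalgae offspring had 4.37 and 4.55 after LPS (7 and 23) and 4.91, 4.54 and 4.32 after saline (12, 15 and 22). Control offspring had 4.51, 4.02 and 4.31 after LPS (6, 16 and 17) and 5.0, 3.88 and 3.73 after saline (8, 14 and 21). Of the 7 values above the widest gap in CD2, between 4.55 and 4.89, 5 came from fish oil offspring, 1 from a microalgae piglet and 1 from a control piglet. Piglet 13 lay more than 1 log2 unit below the other 3 of its group, and piglet 8 lay as far above the other 2 of its group. The SD over 19 piglets was 0.478, at percentile 90.4 of the probe sets tested. The fish oil minus control difference was 0.54 ± 0.23 (95% interval 0.05 to 1.02), or 1.45-fold, with adjusted p = 1.0 and exact permutation p = 0.0743. For microalgae minus control it was 0.28 ± 0.261 (adjusted p = 1.0; exact permutation p = 0.24).

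CD5 encodes a receptor that dampens signalling by the T cell receptor. Its signal was 4.85, 4.53, 4.12 and 5.02 in fish oil offspring after LPS (piglets 10, 19, 20 and 24) and 4.76, 4.73, 5.11 and 5.06 after saline (9, 11, 13 and 18). Microalgae offspring had 4.67 and 4.99 after LPS (7 and 23) and 4.86, 4.76 and 4.65 after saline (12, 15 and 22). Control offspring had 4.30, 5.01 and 3.81 after LPS (6, 16 and 17) and 4.65, 4.44 and 4.48 after saline (8, 14 and 21). After maternal saline the groups did not overlap, with 4 fish oil offspring and 3 microalgae offspring all above the 3 control offspring, although microalgae piglet 22 and control piglet 8 were both at 4.65 after rounding. After maternal LPS they did, since piglet 16 was among the highest and piglet 20 among the lowest of all. The fish oil minus control difference was 0.32 ± 0.167 (adjusted p = 1.0; exact permutation p = 0.113) and the microalgae minus control difference 0.35 ± 0.19 (adjusted p = 1.0; exact permutation p = 0.17). Without control piglet 17, the lowest of the 19, the fish oil difference was 0.18.

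NKG7 encodes a membrane protein of cytotoxic granules in natural killer cells and cytotoxic T cells. Fish oil offspring had 4.88, 4.76, 4.74 and 4.85 after LPS (piglets 10, 19, 20 and 24) and 4.80, 4.97, 4.72 and 4.99 after saline (9, 11, 13 and 18). Microalgae offspring had 4.68 and 4.67 after LPS (7 and 23) and 5.03, 4.77 and 4.25 after saline (12, 15 and 22). Control offspring had 4.54, 4.87 and 4.68 after LPS (6, 16 and 17) and 4.10, 4.28 and 4.36 after saline (8, 14 and 21). Every fish oil piglet was above 5 of the 6 control piglets, the exception being piglet 16. The fish oil minus control difference was 0.37 ± 0.111 (95% interval 0.13 to 0.60), or 1.29-fold. Its exact permutation p was 0.0049, where 0.000816 is the smallest that the 1225 labellings allow. This p is 1 of 91 such tests on genes chosen with earlier results of these data known, so it is a description, as for the other genes. The difference did not pass the adjustment over all probe sets (adjusted p = 1.0). For microalgae minus control it was 0.21 ± 0.126 (adjusted p = 1.0; exact permutation p = 0.235). Differences between the 6 groups made up 62.4% of the sum of squares of NKG7 over the piglets, against 17.9 to 31.5% for the other 5 genes and a median of 24.4% over all probe sets tested.

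GZMA encodes granzyme A, a serine protease of cytotoxic granules. Its brighter probe set (gene 100526762) read 4.23, 2.90, 3.07 and 4.16 in fish oil offspring after LPS (piglets 10, 19, 20 and 24) and 3.51, 3.82, 2.91 and 3.71 after saline (9, 11, 13 and 18). Microalgae offspring had 3.25 and 2.97 after LPS (7 and 23) and 3.54, 3.79 and 3.25 after saline (12, 15 and 22). Control offspring had 3.04, 3.25 and 2.93 after LPS (6, 16 and 17) and 3.57, 2.92 and 3.02 after saline (8, 14 and 21). The fish oil group after LPS was divided, with piglets 10 and 24 the highest of all 19, piglet 20 within the range of the control values and piglet 19 the lowest of all. The fish oil minus control difference was 0.42 ± 0.216, or 1.34-fold (adjusted p = 1.0; exact permutation p = 0.138), and that of microalgae minus control was 0.20 ± 0.244 (adjusted p = 1.0; exact permutation p = 0.205). The dimmer probe set (gene 100233183) ranged from 2.38 to 2.99 in fish oil offspring, from 2.32 to 3.20 in microalgae offspring and from 2.18 to 2.66 in control offspring. Its differences from control were 0.22 ± 0.136 for fish oil (exact permutation p = 0.0767) and 0.30 ± 0.154 for microalgae (exact permutation p = 0.12), and being under the limit on dim probe sets it has no adjusted p.

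**Figure D2:**
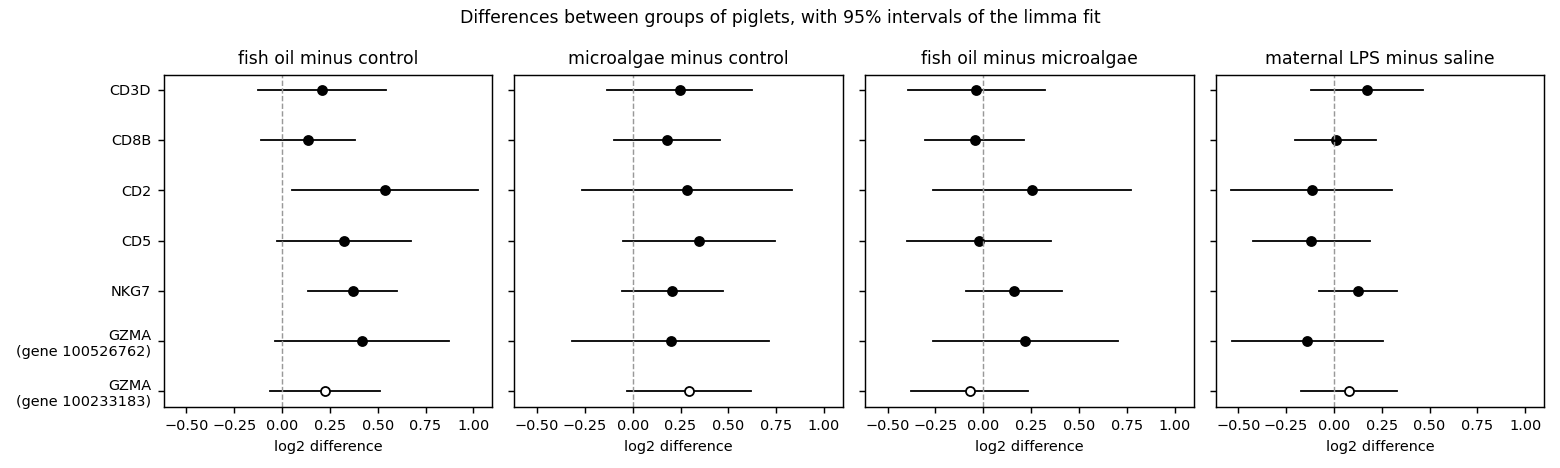
Log2 differences of the 7 probe sets (points) with the 95% interval of the limma fit (lines) in 4 comparisons, 1 per panel, with the dimmer GZMA probe set as an open circle. All points lie above 0 for fish oil minus control and for microalgae minus control, and only the intervals of CD2 and NKG7 for fish oil minus control leave out 0.

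The first question put by the design was whether the sow's diet left a difference in the offspring. For fish oil against control, 0 of the 6 genes passed the adjusted threshold, as did 0 (0%) of the 20668 probe sets tested. At an unadjusted p under 0.05, 2 of the 6 (CD2 and NKG7) passed, against 555 or 2.69% of all probe sets. All 6 were higher, against 50.4% of all probe sets, and their median difference was 0.35, against 0.0013 over all. The 6 genes were chosen with earlier results of these data in view, so this count is a description. For microalgae against control, all 6 were again higher, against 51% of all probe sets, with a median difference of 0.23 against 0.0029 over all. None of the 6 passed an unadjusted p under 0.05, against 1.65% of all probe sets, and 0% passed the adjusted threshold. Both comparisons use the same 6 control piglets, and both counts include the brighter GZMA probe set. That probe set passed the limit on dim probe sets through the groups in which it was high. Its higher mean against control is tied to that limit and adds no weight to either count.

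Set directly against each other, the diets gave no call. In fish oil minus microalgae, 3 of the 6 genes were higher (CD2 by 0.25, NKG7 by 0.16 and GZMA by 0.22) and 3 lower (CD3D at -0.04, CD8B at -0.05 and CD5 at -0.02), against 48.7% of all probe sets higher. None of the 6 passed an unadjusted p under 0.05, against 2.85% of all, and 0% of probe sets passed the adjusted threshold. The lowest exact permutation p was 0.118, for NKG7, where the smallest possible is 0.0019. The 95% intervals reached from -0.27 to 0.77 for CD2 and from -0.09 to 0.41 for NKG7, with 8 against 5 piglets.

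The second question was the effect of the sow's own LPS challenge on the offspring. Averaged over the 3 diets, maternal LPS minus saline was 0.17 ± 0.139 for CD3D (adjusted p = 0.76; exact permutation p = 0.196) and 0.13 ± 0.097 for NKG7 (exact permutation p = 0.305). CD8B differed by 0.01 ± 0.101 (exact permutation p = 0.917). CD2 was at -0.12 ± 0.201 (exact permutation p = 0.549), CD5 at -0.12 ± 0.146 (exact permutation p = 0.42) and the brighter GZMA probe set at -0.14 ± 0.188 (exact permutation p = 0.431). The 9 piglets after LPS and the 10 after saline overlapped for all 6 genes, as they did for every probe set tested (0% of all did not overlap). Of the 6, 3 were higher, against 51.8% of all probe sets, and 0 had an unadjusted p under 0.05, against 6.97% of all. The adjusted p of the 6 lay between 0.76 and 0.99. Over the whole array 2 probe sets (0.00968%) passed the adjusted threshold, neither of them one of these genes.

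Comparisons within 1 diet or within 1 maternal challenge asked whether the differences depended on the other factor. Within the control diet NKG7 was 4.54 to 4.87 in the 3 offspring after LPS and 4.10 to 4.36 in the 3 after saline. These groups did not overlap, which was the case for 1 of the 6 genes and for 5.98% of all probe sets. The difference was 0.45 ± 0.168, and its exact permutation p of 0.1 is the smallest that 3 against 3 piglets allow. Within fish oil the same difference was -0.06 ± 0.146 and within microalgae -0.01 ± 0.188. The difference between fish oil and control in the effect of maternal LPS on NKG7 was -0.51 ± 0.222 (adjusted p = 1.0), 1 of the 6 genes at an unadjusted p under 0.05, against 2.64% of all probe sets.

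After maternal saline, NKG7 was 4.72 to 4.99 in the 4 fish oil offspring and 4.10 to 4.36 in the 3 control offspring, a difference of 0.62 ± 0.157 (adjusted p = 1.0; exact permutation p = 0.0286, the smallest that 4 against 3 piglets allow). CD5 also did not overlap there (0.39 ± 0.236; exact permutation p = 0.0571), so that 2 of the 6 genes had groups apart, against 4.12% of all probe sets. CD2 was 0.72 ± 0.326 higher in the same comparison, with overlap through piglets 13 and 8 (exact permutation p = 0.171). After maternal LPS 0 of the 6 had fish oil and control groups apart, against 3.36% of all probe sets, and the differences were 0.11 ± 0.157 for NKG7, 0.26 ± 0.236 for CD5 and 0.35 ± 0.326 for CD2. The brighter GZMA probe set was at 0.52 ± 0.305 after LPS and 0.32 ± 0.305 after saline.

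For microalgae, the stratum after LPS holds only 2 piglets, and 18.2% of all probe sets had groups that did not overlap the 3 control offspring. CD3D (0.29 ± 0.269) and CD8B (0.23 ± 0.196) were among these 18.2%. After saline the figure was 7.84% of all probe sets, and CD5 was the 1 of the 6 genes (0.23 ± 0.253). NKG7 in microalgae offspring differed from control by 0.44 ± 0.168 after saline and by -0.02 ± 0.188 after LPS, with the highest and lowest values after saline, 5.03 and 4.25, far apart. Between fish oil and microalgae after LPS, NKG7 alone of the 6 did not overlap (4.74 to 4.88 against 4.67 to 4.68; 12.8% of all probe sets), by 0.13 ± 0.178.

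The remaining interaction terms gave no call either. For microalgae against control, 0 of the 6 had an unadjusted p under 0.05, against 5.41% of all probe sets, and the term for NKG7 was -0.46 ± 0.252 (adjusted p = 0.86). For fish oil against microalgae, 0 of the 6 passed, against 7.23% of all, and the brighter GZMA probe set had the term farthest from 0, at 0.52 ± 0.461 (adjusted p = 0.82). In all 3 interactions and all 9 comparisons of single groups, 0% of probe sets passed the adjusted threshold.

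**Figure D3:**
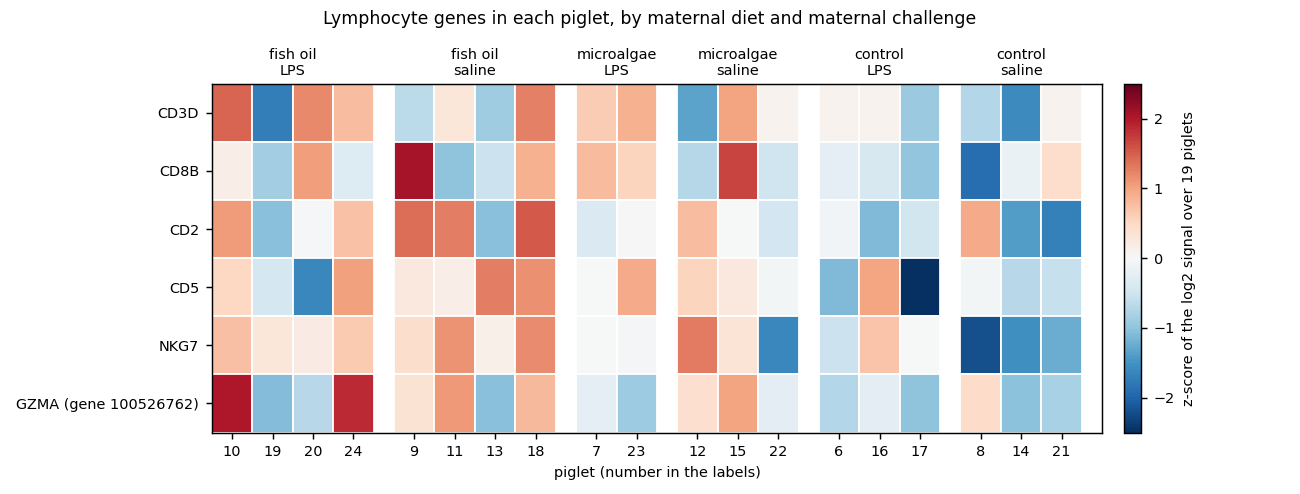
Z-score of the log2 signal of each of the 6 tested probe sets (rows) over the 19 piglets (columns), grouped by maternal diet and maternal challenge, with red above and blue below the mean of the gene. Piglets 10 and 18 are above the mean for all 6 genes and piglets 14 and 17 are below it for all 6, while piglet 13 is high for CD5 and low for CD2 and GZMA.

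The genes differed among themselves within a piglet. Piglets 18 (fish oil, saline), 10 (fish oil, LPS) and 15 (microalgae, saline) were above the median of the 19 for all 6 genes, and their mean z-scores were 1.14, 1.0 and 0.72. Piglets 6 and 17 (control, LPS) and 22 (microalgae, saline) were above the median for 0 of 6, with mean z-scores of -0.44, -0.99 and -0.48. The lowest mean z-score was that of piglet 14 (control, saline), at -1.06. Piglets 13 and 19, both fish oil offspring, were above the median for 1 gene each, CD5 in piglet 13 and NKG7 in piglet 19. All 6 control offspring had a mean z-score at or below 0, from -1.06 to -0.00076 (piglet 16). Fish oil offspring lay between -0.81 and 1.14 and microalgae offspring between -0.48 and 0.72. The score includes the brighter GZMA probe set, which passed the limit on dim probe sets through the groups in which it was high. The 6 genes were also chosen with earlier results of these data known, so these scores are a description.

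Across the 19 piglets the 7 probe sets gave 21 pairs, and Pearson's r was above 0 in all 21, from 0.10 to 0.75 with a median of 0.30. After Benjamini-Hochberg adjustment over the 21 pairs, 1 passed, CD2 with the brighter GZMA probe set (r = 0.75, permutation p = 0.00021, adjusted 0.00441; Spearman's rho = 0.76, permutation p = 0.00035, adjusted 0.00735). It was 0.75 without the 2 piglets farthest from the CD2 median. Taken on deviations from the 6 group means it was also 0.75 (permutation p = 0.00663, adjusted 0.139), and on that scale 17 of the 21 pairs were above 0 and 0 passed. The points fall on either side of the gap in CD2, a split made after the values were seen. The 7 piglets above it had GZMA between 3.51 and 4.23, and the 12 below it had 2.90 to 3.79. Within the sides r was -0.27 and 0.39, each over a CD2 range that the split itself narrows, so these values do not show whether a relation holds within the sides.

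None of the other pairs passed. CD3D had r = 0.49 with CD8B (adjusted 0.183) and 0.50 with the brighter GZMA probe set (adjusted 0.183). CD8B had 0.10 with that GZMA probe set and 0.13 with CD2. NKG7 had 0.44 with CD2 and 0.36 with CD5. The 2 GZMA probe sets had r = 0.11 with each other, and the dimmer one had its highest r, 0.59, with CD8B (adjusted 0.0905).

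**Figure D4:**
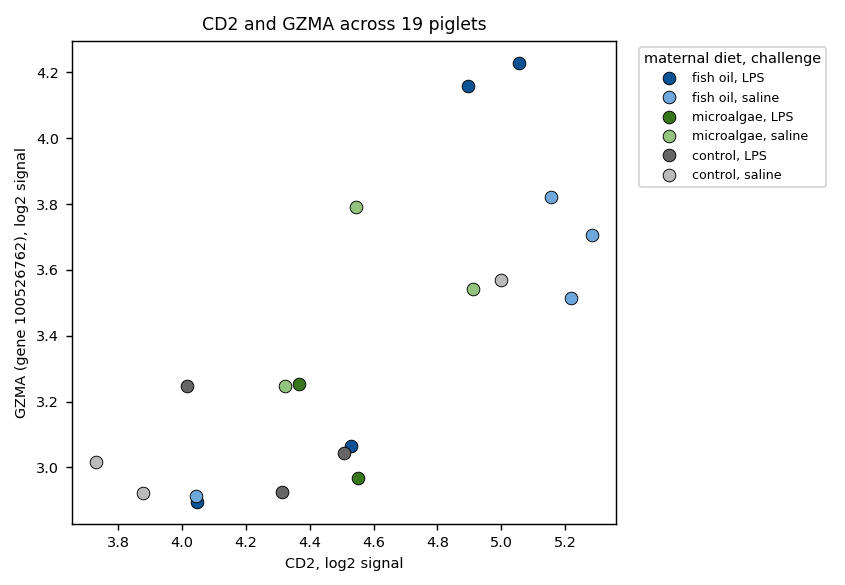
Log2 signal of the brighter GZMA probe set (y axis) against that of CD2 (x axis) in 19 piglets (points), coloured by maternal diet and maternal challenge. The 7 piglets with CD2 at or above 4.89 all have GZMA at or above 3.51, among them 5 fish oil offspring, and r over all 19 is 0.75.

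Partners of these proteins were measured too. CD3E, another CD3 chain, was 0.14 ± 0.14 higher in fish oil than in control offspring, CD8A 0.19 ± 0.158, and CD247, the zeta chain of the T cell receptor, 0.09 ± 0.0876. CD6, the relative of CD5, was at 0.02 ± 0.0996. Among cytotoxic genes, the pore former PRF1 was at 0.16 ± 0.128, the granzyme GZMB at 0.21 ± 0.226 and CTSW, a protease of cytotoxic lymphocytes, at 0.29 ± 0.15. All of these had adjusted p = 1.0. After maternal LPS, fish oil and control means were 4.77 and 4.478 for CD3E, 3.83 and 3.483 for CD8A and 5.058 and 4.831 for CD247. After saline they were 4.521 and 4.535, 3.787 and 3.746, and 5.013 and 5.064 in the same order. CD6 had 3.873 and 3.719 after LPS and 3.863 and 3.971 after saline, and PRF1 3.723 and 3.431, then 3.371 and 3.348. GZMB had 4.844 and 4.617, then 4.847 and 4.655, and CTSW 3.817 and 3.635, then 3.887 and 3.496. Microalgae minus control was 0.06 ± 0.159 for CD3E, 0.19 ± 0.18 for CD8A, 0.19 ± 0.145 for PRF1 and -0.04 ± 0.257 for GZMB, also with adjusted p = 1.0. CD3G and GZMK were under the limit on dim probe sets, at means of 2.88 and 2.80.

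Wider lists that leave out these 6 genes were described in the same way. Of 36 further T cell genes, 21 were measured and 15 tested, of which 10 were higher in fish oil than in control offspring with a median difference of 0.02, 0 of them past the adjusted threshold. Of 24 further genes of the T cell receptor complex and its proximal signalling, 17 were tested and 14 were higher (median 0.06), again with 0 called. CD4, the coreceptor of helper T cells, had the smallest p in both lists, at 0.19 ± 0.122. Of 32 further cytotoxic and natural killer cell genes, 12 were tested and 9 were higher (median 0.21, 0 called), led by CTSW and by GNLY, a granule protein, at 0.34 ± 0.221. For microalgae against control the same lists had 9 of 15, 13 of 17 and 8 of 12 higher, with medians of 0.004, 0.05 and 0.05.

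Macrophage and general leucocyte markers also had higher means in fish oil than in control offspring after maternal saline, with 0 of them past the adjusted threshold. Of 15 macrophage genes tested (17 of 19 measured), 15 were higher in fish oil than in control offspring after saline (median 0.42), among them MRC1, a mannose receptor, at 0.83 ± 0.28 (-0.07 ± 0.28 after LPS), while 6 of 15 were higher after LPS (median -0.08). The mean macrophage signal ran from 4.90 to 5.29 over fish oil piglets after LPS and from 4.88 to 5.63 after saline, against 5.15 to 5.26 and 4.77 to 5.01 in control piglets. Of 6 genes carried by leucocytes in general (7 of 16 measured), 6 were higher after saline (median 0.38), with the phosphatase PTPRC (CD45) at 0.52 ± 0.267 (0.27 ± 0.267 after LPS), and 3 of 6 were higher after LPS (median 0.02). Their mean ran from 5.34 to 5.84 after LPS and from 5.46 to 6.06 after saline in fish oil piglets, against 5.43 to 5.64 and 5.17 to 5.49 in control piglets. Of the further T cell genes, 5 of 15 were higher after saline (median -0.06) and 10 of 15 after LPS (median 0.15). In both strata SIT1 had the smallest p of the T cell list, at -0.39 ± 0.145 after saline and 0.32 ± 0.145 after LPS. Its interaction was 0.70 ± 0.205, and none of these passed the adjusted threshold. Of all probe sets, 51.2% were higher in fish oil than in control offspring after saline. The higher macrophage and leucocyte means after saline were not particular to fish oil. In microalgae against control offspring, 15 of 15 macrophage genes (median 0.25) and 6 of 6 leucocyte genes (median 0.24) were higher after saline. After LPS 4 of 15 and 2 of 6 were. Within the control diet, 14 of 15 (median 0.34) and 6 of 6 (median 0.26) were higher after LPS than after saline. The part of the macrophage and general leucocyte signals in the differences of CD2, CD5, NKG7 and GZMA was not tested. Array signals have no true zero, so none of these markers can be called absent.

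**Figure D5:**
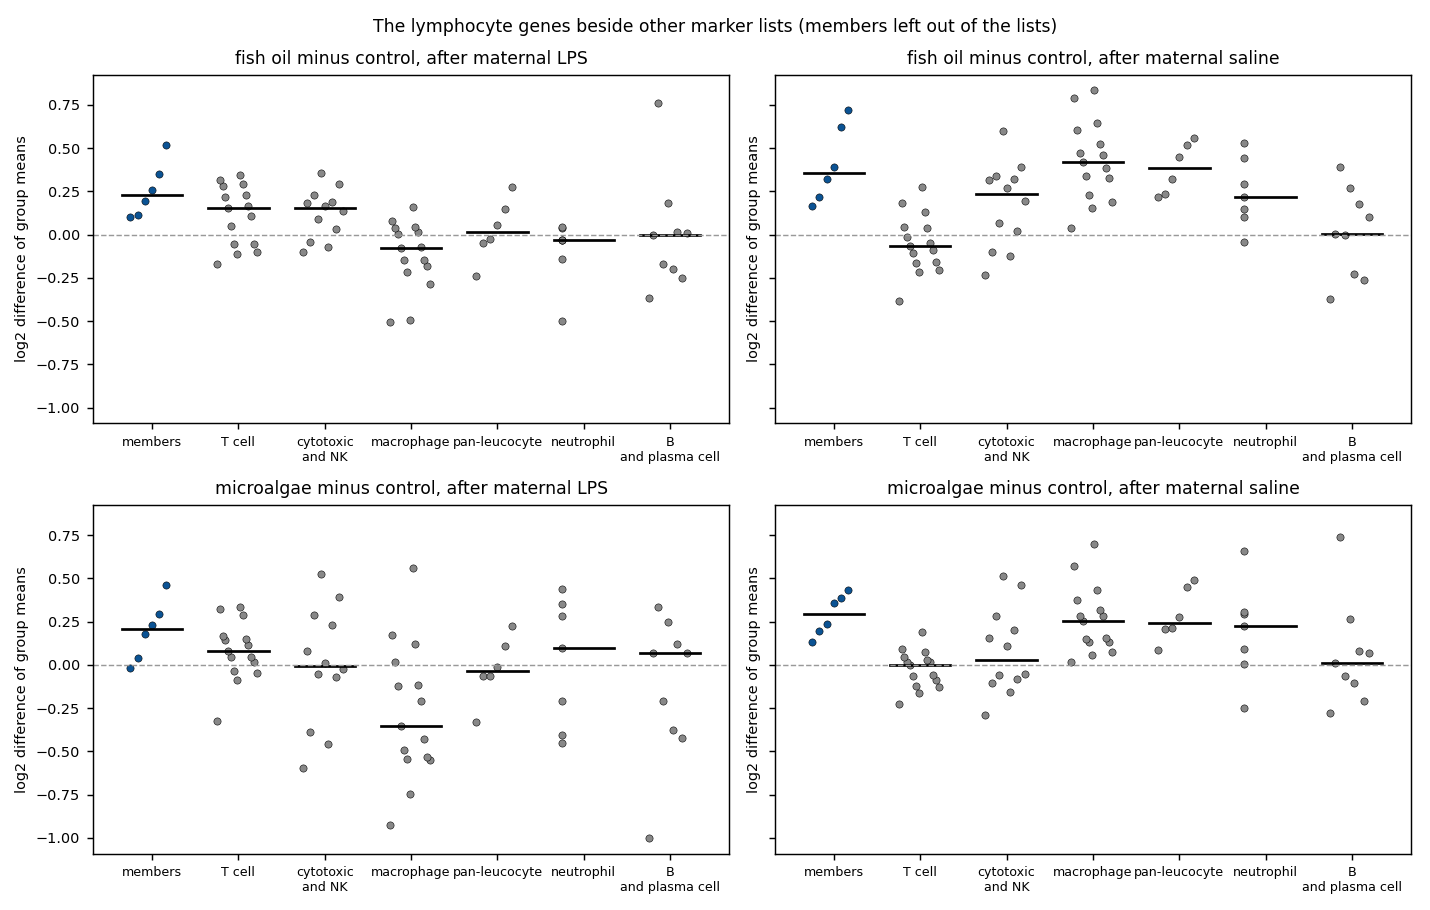
Log2 difference of group means (y axis) for each tested gene (points) of the 6 lymphocyte genes and of 6 marker lists without them (x axis), for fish oil and microalgae minus control after maternal LPS and after maternal saline, with the list median as a line. For fish oil after saline the medians are 0.36 for the 6 genes, 0.42 for macrophage and 0.38 for pan-leucocyte genes. They are -0.06 for T cell, 0.23 for cytotoxic and natural killer cell, 0.22 for neutrophil and 0.002 for B cell genes. For fish oil after LPS they are 0.23, -0.08, 0.02, 0.15, 0.15, -0.03 and -0.0002 in the same order.

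Of 9 B cell genes, 3 were higher in fish oil than in control offspring over both challenges (median -0.09), 4 after LPS (median -0.0002) and 5 after saline (median 0.0022). Of 7 neutrophil genes, 5 were higher over both challenges (median 0.06), 2 after LPS (median -0.03) and 6 after saline (median 0.22). Of all probe sets, 50.4% were higher over both challenges, 49.3% after LPS and 51.2% after saline. Among 15 genes of lymphocyte attracting chemokines and of adhesion, 9 were higher in fish oil than in control offspring over both challenges. They were led by ITGA4, an integrin chain that leucocytes use to enter tissue, at 0.47 ± 0.129 (adjusted p = 1.0). ITGA4 was at 0.13 ± 0.182 after LPS and 0.81 ± 0.182 after saline, and the interaction was -0.68 ± 0.258 (adjusted p = 1.0). By maternal challenge, averaged over the diets, 13 of these 15 were lower after LPS (median -0.14), while 51.8% of all probe sets were higher. Within the diets 11 were lower in fish oil offspring (median -0.18), 12 in microalgae offspring (median -0.24) and 7 in control offspring (median 0.01). Of all probe sets, 51.1%, 53.3% and 50.3% were higher after LPS within these diets, in the same order. Among the T cell attractants of the list, averaged over the diets, CXCL11 was at -1.29 ± 0.362 (adjusted p = 0.419) and CXCL9 at -0.84 ± 0.292 (adjusted p = 0.605). The 6 lymphocyte genes had a median of -0.05 in the same comparison. Within the diets, CXCL11 was at -1.82 ± 0.544 in fish oil, -1.69 ± 0.702 in microalgae and -0.37 ± 0.628 in control offspring. CXCL9 was at -1.22 ± 0.438, -1.09 ± 0.566 and -0.21 ± 0.506 in the same order.

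The genes whose signal followed the mean z-score of the 6 most closely were sought among 9986 genes, with Pearson's r over 19 piglets as the measure. They were LOC100519092 (0.74), PRR19 (0.72), HCLS1 (0.71), ADGRE1 (0.71), FAM96A (0.70), CGN (0.68), C6H1orf174 (0.68), LOC100524999 (0.68), LOC100517372 (0.67) and CTSW (0.67). HCLS1 is a protein of blood cell lineages, and ADGRE1 is an adhesion receptor of macrophages. Of these 10, 6 were also among the 10 highest by Spearman's rho, and 1 was among the 10 highest on deviations from the group means. On those deviations HCLS1 ranked 201, ADGRE1 64 and CTSW 361 of the 9986. An r above 0.5 was found for 2.12% of the genes. Negative values were as large, with LSMEM2 at -0.79, ZC3H14 at -0.76 and KPNA5 at -0.75.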

How the data were processed

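RNA of whole adrenals was hybridised to 1-colour Affymetrix arrays, 1 per piglet. The deposited values are log2 signals made with Transcriptome Analysis Console 4.0, per the submitters' processing notes. No source used here names the summarization or normalization, and base 2 was inferred from the range (0.263 to 13.5). The values were used as deposited. Of 27558 probe sets, 13157 have 1 gene symbol, 523 several and 13878 none, and 7 symbols were updated. Control probe sets could not be told from the others and were kept.

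After the dimmest 25% (6890) were left out, 20668 probe sets were fitted in limma 3.58.1 (R 4.3.3) with 1 mean for each of 6 groups, an intensity trend and 13 residual degrees of freedom. P-values are two-sided, adjusted by Benjamini and Hochberg over the whole table, with a threshold of 0.05. The ± beside a difference is the SE of this fit. Beside it, 91 exact permutation tests of single probe sets permuted labels within the levels of the other factor. Correlations used 100000 permutations. Alternatives were other filters, scalings, variance models, weights, covariates and sets of piglets.

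All probe sets of the 6 genes are named. In each list up to 4 genes with the smallest p are eligible, with neighbouring and partner genes added as context. The most similar 10 genes are named by r. The members and lists were chosen with earlier results of these data known. Piglet numbers are names and pair no samples, no batch is given in the labels, and a planned search of promoters for motifs was not run, as no promoter sequence was used here.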

Additional observations from a re-analysis of the deposited data

Results flagged for a closer look

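In the fish oil offspring after maternal saline, piglet 13 had a CD2 signal of 4.045 log2, while the other 3 of this group lay between 5.15 and 5.28. Its gap to the nearest of them made up 0.896 of the range of the group, above Dixon's 95% critical value of 0.829 for 4 samples. It was the only value set apart in this way among 14 tests (7 probe sets in the 2 groups of 4 piglets), of which chance flags about 1 in 20. The same piglet had the highest CD5 signal of all 19 (5.11) and the second lowest signal of the brighter GZMA probe set in fish oil offspring (2.91). Without it, the fish oil minus control difference of CD2 was 0.68.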

How the results depend on the processing

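The 24 differences of the 6 genes in the 4 main comparisons were refitted 702 times, under 11 alternatives and with each of the 19 piglets left out. Of these refits 677 kept direction and side of the threshold, 25 changed sign in 5 differences, and 0 passed the threshold (lowest adjusted p = 0.62). No sign changed for fish oil or microalgae against control. Leaving out 1 piglet gave, for fish oil, 0.15 to 0.31 for CD3D, 0.07 to 0.18 for CD8B, 0.42 to 0.74 for CD2, 0.18 to 0.48 for CD5, 0.33 to 0.41 for NKG7 and 0.31 to 0.53 for GZMA. For microalgae it gave 0.17 to 0.34 for CD3D, 0.11 to 0.23 for CD8B, 0.17 to 0.48 for CD2, 0.21 to 0.51 for CD5, 0.12 to 0.32 for NKG7 and 0.13 to 0.30 for GZMA. Leaving out both piglets 6 and 24 gave 0.32 for NKG7, 0.55 for CD2 and 0.24 for CD5 with fish oil. CD8B by maternal LPS was -0.039 with quantile normalization, -0.036 with median centring, -0.019 with array weights, -0.017 with the array spread as covariate and -0.0044 in the additive model. CD5 between fish oil and microalgae was 0.011 with quantile normalization, 0.010 with median centring and 0.0096 with the array spread. Leaving out 1 piglet at a time gave -0.034 to 0.058 for CD8B and -0.22 to 0.016 for CD2 by maternal LPS, and -0.13 to 0.068 for CD3D, -0.10 to 0.027 for CD8B and -0.10 to 0.062 for CD5 between fish oil and microalgae. The 2 probe sets called for maternal LPS became 0 with no filter, quantile normalization, the array spread or medulla score as covariate, the additive model or without both piglets 6 and 24, and 9 with array weights, and 0 to 12 without single piglets. At an unadjusted p under 0.05 the counts were 1440 for maternal LPS, 555 for fish oil and 340 for microalgae against control, and 590 between fish oil and microalgae. The cause was not tested. No paired analysis was possible because the labels give the groups no shared replicate numbers.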
